A study of Mus musculus with 9 samples.

Results

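The transcripts described here are 8 genes of fibroblasts and of the extracellular matrix, measured as traces in regulatory T cells (Tregs) sorted from mouse tumours: the collagen genes Col3a1, Col1a1 and Col1a2, the proteoglycan genes Dcn and Lum, the matrix glycoprotein genes Fn1 and Sparc, and Cyr61. They were chosen by symbol. All 8 have a row among the 53250 genes of the unnormalized table, and 7 have one among the 16409 genes of the normalized table. Col1a2 has none there, because its highest value was 0.533 FPKM (fragments per kilobase of transcript and per unit of library size) and the genes kept in that table reach about 1 FPKM. Genes that reached 1 FPKM in 3 or more of the 9 libraries were tested, which left 12555 genes and 6 of the 8: Dcn, Lum, Col3a1, Sparc, Fn1 and Cyr61. Col1a1 reached 1 FPKM in 2 libraries and was not tested, so counts over the 6 do not stand for all 8.

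The study asked how the integrin subunit b8 on tumour cells bears on the Tregs of the same tumour. CD4+ GFP+ cells were sorted from Lewis lung carcinoma (LLC) tumours, a mouse lung cancer line, in mice labelled wild-type on the C57BL/6 background, and each of the 9 libraries holds the RNA of 1 pool from 3 to 4 mice. For the 3 Mock pools the LLC cells were mock-transfected and the mice untreated. The 3 b8 isotype pools came from b8-expressing LLC tumours of mice given an isotype control antibody, whose dose the labels do not state. The 3 anti-b8 pools came from b8-expressing LLC tumours of mice given the anti-b8 antibody C6D4 at 7 mg/kg intraperitoneally 2 times a week from day 7, and tumours were taken on day 14. All 3 groups therefore carry LLC tumours. Since Mock mice were untreated, b8 on the tumour goes together with an antibody in both comparisons with Mock, and their parts cannot be told apart. No label says what drives GFP, how many cells were sorted or how old the mice were.

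Fibroblasts make most of the fibrillar collagen of a tissue and wrap it in small leucine-rich proteoglycans, which set the thickness and spacing of the fibrils. Fibronectin is laid down early in this matrix, while SPARC and CYR61 are secreted proteins that act on how cells hold on to it. T cells are not a usual source of fibrillar collagen, decorin or lumican. In a bulk library of sorted cells, more cells of another type and more RNA per cell cannot be told apart.

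The libraries carried the markers of the sort. Foxp3, the transcription factor that defines Tregs, measured 74.0 to 135 FPKM over the 9 pools, the T cell receptor subunit gene Cd3e 602 to 828 and Cd4 66.8 to 111 (unnormalized FPKM). In 7 libraries 11785 to 12177 genes reached 1 FPKM, against 9772 in anti-b8 pool 2 and 9283 in anti-b8 pool 3, so the fitted differences of the 6 genes, of Col1a1 and of the matrix lists are also given without these 2 pools. The number of reads is not in the files. The p-values below measure the spread between pools of mice.

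Summed over the 8 genes, the unnormalized signal was 21.8 to 27.1 FPKM in the Mock pools. It was 70.2, 233 and 218 FPKM in b8 isotype pools 1, 2 and 3, and 30.1, 116 and 74.1 FPKM in the anti-b8 pools. As a share of all FPKM in a library, this was 0.00346% to 0.00400% in Mock, 0.0114% to 0.0352% in b8 isotype and 0.00461% to 0.0176% in anti-b8. Every b8 isotype pool and every anti-b8 pool thus lay above every Mock pool in this sum, while b8 isotype pool 1 lay among the anti-b8 pools. The sum is made mostly of Dcn, Col3a1, Sparc and Fn1, and the genes did not move alike.

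**Figure D1:**
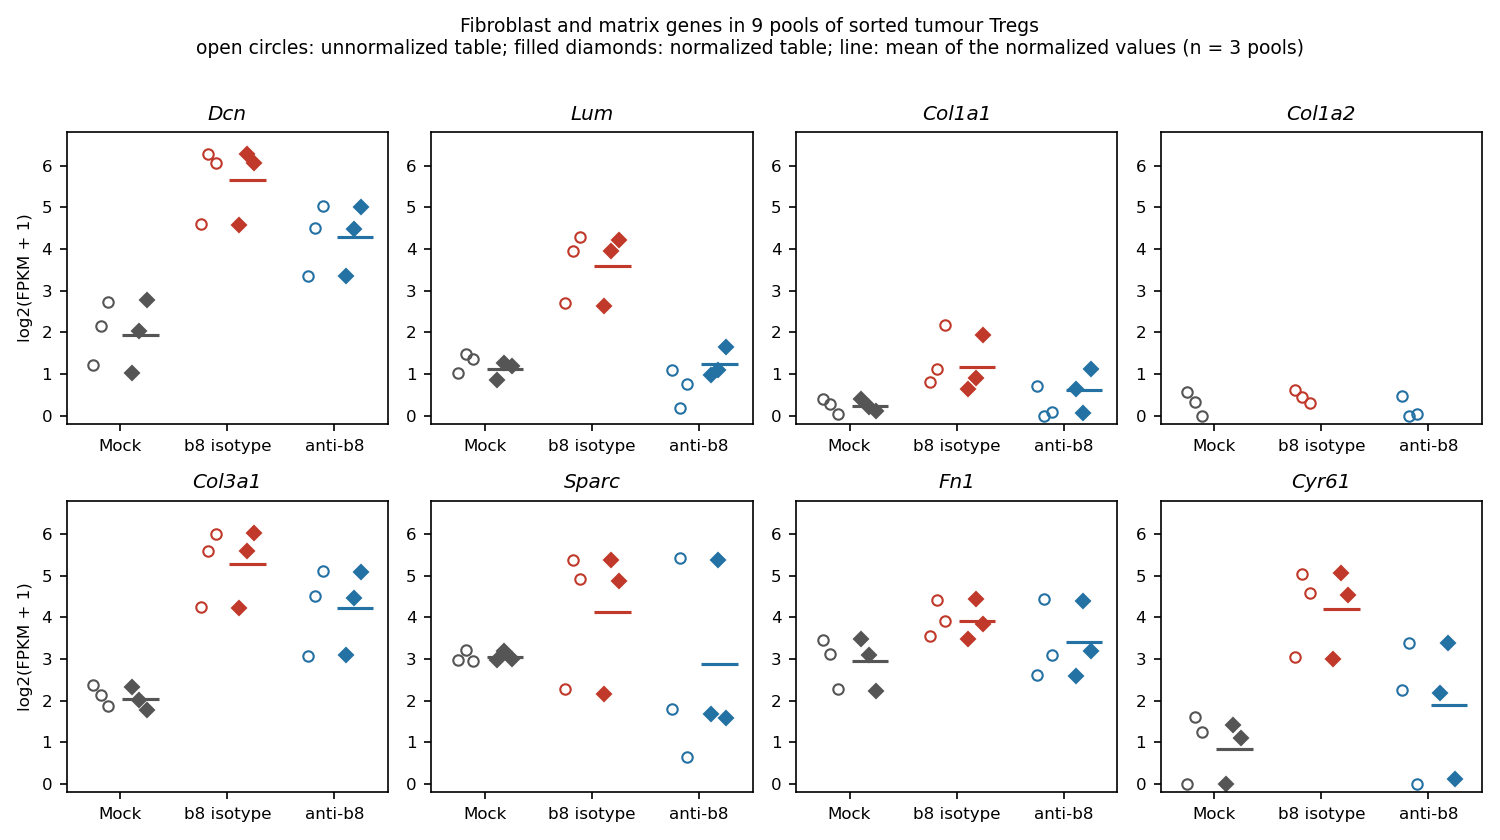
Levels of the 8 genes as log2(FPKM + 1) in 9 pools, with 1 panel per gene. Open circles are unnormalized values, filled diamonds are normalized values and lines are the means of the normalized values over 3 pools. Dcn, Lum, Col3a1 and Cyr61 are higher in each b8 isotype pool than in each Mock pool, whereas Sparc spreads widely within both b8 groups and Col1a2 stays near 0.

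Of the 3 collagen genes of the set, Col3a1 carried nearly all of the signal. Col3a1 encodes the chain of type III collagen, which forms the fine fibrils of loose connective tissue, and lies at chromosome 1, 45311538 to 45349706, on the plus strand of GRCm38. In the normalized table it measured 4.00, 3.07 and 2.44 FPKM in Mock pools 1, 2 and 3. It measured 17.6, 47.2 and 63.7 FPKM in the b8 isotype pools and 7.56, 21.2 and 33.3 FPKM in the anti-b8 pools. The Mock pools lay below all 6 pools from b8-expressing tumours, and the b8 isotype and anti-b8 pools overlapped. The group means were 3.17 ± 0.787, 42.8 ± 23.3 and 20.7 ± 12.9 FPKM (SD, n = 3 pools each).

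Col1a1 and Col1a2 encode the chains of type I collagen, the main collagen of most connective tissues, and were far lower than Col3a1. Col1a1 (chromosome 11, 94936224 to 94953042, plus strand) measured 0.313, 0.215 and 0.0315 FPKM in Mock, 0.752, 1.16 and 3.49 in b8 isotype and 0.634, 0 and 0.0641 in anti-b8 in the unnormalized table. Its b8 isotype pools lay above all Mock and all anti-b8 pools there, and the share of all genes with this was not computed for that table. The values of 0 and 0.0641 are from anti-b8 pools 2 and 3, in which fewer genes were detected. In the normalized table anti-b8 pool 2 is listed at 0.0520 FPKM and pool 3 at 1.16 FPKM, so there b8 isotype and anti-b8 overlap. The value of 0.0520 is the lowest that table gives for pool 2, where the unnormalized value was 0. Col1a2 (chromosome 6, 4504814 to 4541544, plus strand) measured 0.472, 0.258 and 0 FPKM in Mock, 0.533, 0.354 and 0.237 in b8 isotype and 0.391, 0 and 0.0298 in anti-b8. The 3 groups overlapped for Col1a2, and the gene stayed under 1 FPKM in every pool.

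Type III collagen transcripts thus outweighed those of type I in every pool. FPKM is scaled to transcript length, so genes can be set side by side within a library. Col1a1 made 1.19% to 7.48% of the Col3a1 level in Mock, 2.46% to 5.51% in b8 isotype and 0% to 8.56% in anti-b8 (unnormalized). Col1a2 made 0% to 11.3%, 0.375% to 2.95% and 0% to 5.28% of it in those groups. In b8 isotype pool 3, the pool with the highest Col3a1 and Col1a1, Col1a2 was at 0.375% of Col3a1, although both type I chains are parts of 1 protein.

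In an added fit of the unnormalized table over the 27039 genes with a value, Col1a1 differed by 1.12 ± 0.40 (log2 difference ± SE) between b8 isotype and Mock (unadjusted p = 0.0206, limma adjusted p = 0.841). Between anti-b8 and b8 isotype it differed by -1.10 ± 0.40 (unadjusted p = 0.0229, limma adjusted p = 0.619). Without anti-b8 pools 2 and 3 that difference of Col1a1 was -0.65 ± 0.56 (limma adjusted p = 1). Col1a2 differed by 0.16 ± 0.23 and -0.28 ± 0.23 in these comparisons, within 2 SE of 0. In b8 isotype against Mock that fit called 0 genes at an adjusted p under 0.05, with 800 higher and 510 lower at an unadjusted p under 0.05. This fit was chosen after the data were seen, because it is the one that holds Col1a2.

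The RefSeq promoter table (GRCm38.p6) held 4 of the 8 genes: Col3a1, Col1a2, Sparc and Cyr61. The 250 bases before the RefSeq start are shown for the highest collagen gene, for the type I gene that stayed near 0, and for Cyr61, which like Col3a1 was higher in all b8 isotype pools than in all Mock pools. Capitals mark matches to the TATA box TATAAA, the core bound by TEAD factors, CATTCC, the GC box GGGCGG and the CCAAT box, searched on both strands. TGANTCA, the site of AP-1 factors, was searched as well. The windows are chr1:45311288-45311537 on the plus strand for Col3a1, chr6:4505368-4505617 on the plus strand for Col1a2 and chr3:145649986-145650235 on the minus strand for Cyr61, each read 5′ to 3′ along the gene.
Col3a1: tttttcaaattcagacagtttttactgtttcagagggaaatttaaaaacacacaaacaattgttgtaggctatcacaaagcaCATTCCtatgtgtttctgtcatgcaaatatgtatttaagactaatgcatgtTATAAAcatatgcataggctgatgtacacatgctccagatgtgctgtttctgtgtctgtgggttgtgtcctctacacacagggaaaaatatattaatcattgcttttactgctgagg
Col1a2: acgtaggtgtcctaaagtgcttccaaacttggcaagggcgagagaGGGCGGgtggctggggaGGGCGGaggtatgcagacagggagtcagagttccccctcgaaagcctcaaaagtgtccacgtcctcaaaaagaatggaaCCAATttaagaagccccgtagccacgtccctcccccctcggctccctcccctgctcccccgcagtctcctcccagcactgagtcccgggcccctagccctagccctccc
Cyr61: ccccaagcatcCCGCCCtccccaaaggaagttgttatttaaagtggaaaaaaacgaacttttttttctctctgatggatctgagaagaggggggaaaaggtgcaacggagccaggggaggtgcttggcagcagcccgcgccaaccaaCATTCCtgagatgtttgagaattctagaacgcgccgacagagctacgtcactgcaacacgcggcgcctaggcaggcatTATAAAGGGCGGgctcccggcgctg
Col3a1 held CATTCC 168 bases and TATAAA 117 bases before the start. Col1a2 held GGGCGG 205 and 188 bases and CCAAT 109 bases before it, with neither TATAAA nor CATTCC in the window. Cyr61 held CATTCC 103 bases, TATAAA 25 bases and GGGCGG 19 bases before the start, the last of these directly after TATAAA, and GGGCGG also 239 bases before it on the opposite strand, where it reads CCGCCC. The AP-1 site TGANTCA matched in none of the 3 windows. Over 32817 windows of the same length in the table, TATAAA was in 12.4%, CATTCC in 12.6%, GGGCGG in 32.7%, CCAAT in 33.8% and TGANTCA in 6.75%. Such matches describe letters in these windows and are not sites of binding.

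Dcn encodes decorin, the proteoglycan that coats collagen fibrils and binds TGF-β, and lies at chromosome 10, 97479609 to 97518143, plus strand. It measured 1.03, 3.06 and 5.82 FPKM in Mock, 22.9, 76.7 and 66.3 in b8 isotype and 9.26, 21.2 and 30.9 in anti-b8 (normalized). All 3 b8 isotype pools and all 3 anti-b8 pools were higher than the highest Mock pool, and b8 isotype pool 1 lay within the range of the anti-b8 pools. The means were 3.30 ± 2.40, 55.3 ± 28.6 and 20.4 ± 10.8 FPKM (SD, n = 3 pools each), a ratio of 16.7 between b8 isotype and Mock.

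Lum encodes lumican, a keratan sulfate proteoglycan of the same family, and lies next to Dcn at chromosome 10, 97565128 to 97572703, plus strand. It measured 0.817, 1.42 and 1.29 FPKM in Mock, 5.15, 14.4 and 17.5 in b8 isotype and 0.963, 1.15 and 2.15 in anti-b8. Here the b8 isotype pools stood above all 6 others, and Mock and anti-b8 overlapped. Lum is therefore the tested gene of the 6 in which anti-b8 pools did not overlap b8 isotype pools. Its means were 1.18 ± 0.317, 12.3 ± 6.42 and 1.42 ± 0.639 FPKM (SD, n = 3 pools each).

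The unnormalized values of Lum in anti-b8 were 1.14, 0.136 and 0.688 FPKM, so the normalized table raised pool 2 from 0.136 to 1.15 and pool 3 from 0.688 to 2.15. With 1 annotated transcript of 2448 bases, 1 fragment of Lum was worth 0.0347 to 0.0445 FPKM, as read from the smallest steps of low genes. Lum thus rested on about 23, 46 and 35 fragments in Mock, 146, 328 and 534 in b8 isotype and 28, 3 and 16 in anti-b8. Fragments without molecular identifiers are not independent molecules. The counts of 3 and 16 are those of the anti-b8 pools in which fewer genes were detected.

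Dcn and Lum, neighbours on chromosome 10, parted in the anti-b8 pools. Lum measured 80.1%, 52.1% and 27.4% of the Dcn level in Mock, 23.7%, 18.7% and 28.0% in b8 isotype and 12.5%, 0.624% and 2.18% in anti-b8 (unnormalized). The 3 anti-b8 pools had the lowest ratios of all 9. Col3a1, in contrast, kept close to Dcn in the 6 pools of b8-expressing tumours, at ratios of 0.773, 0.610 and 0.955 in b8 isotype and 0.807, 1.002 and 1.07 in anti-b8. In Mock, where both genes were low, the ratio of Col3a1 to Dcn spread from 0.467 to 3.21. In the normalized table Lum was 5.42% to 10.4% of Dcn in anti-b8, 18.7% to 26.4% in b8 isotype and 22.2% to 79.0% in Mock.

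**Figure D2:**
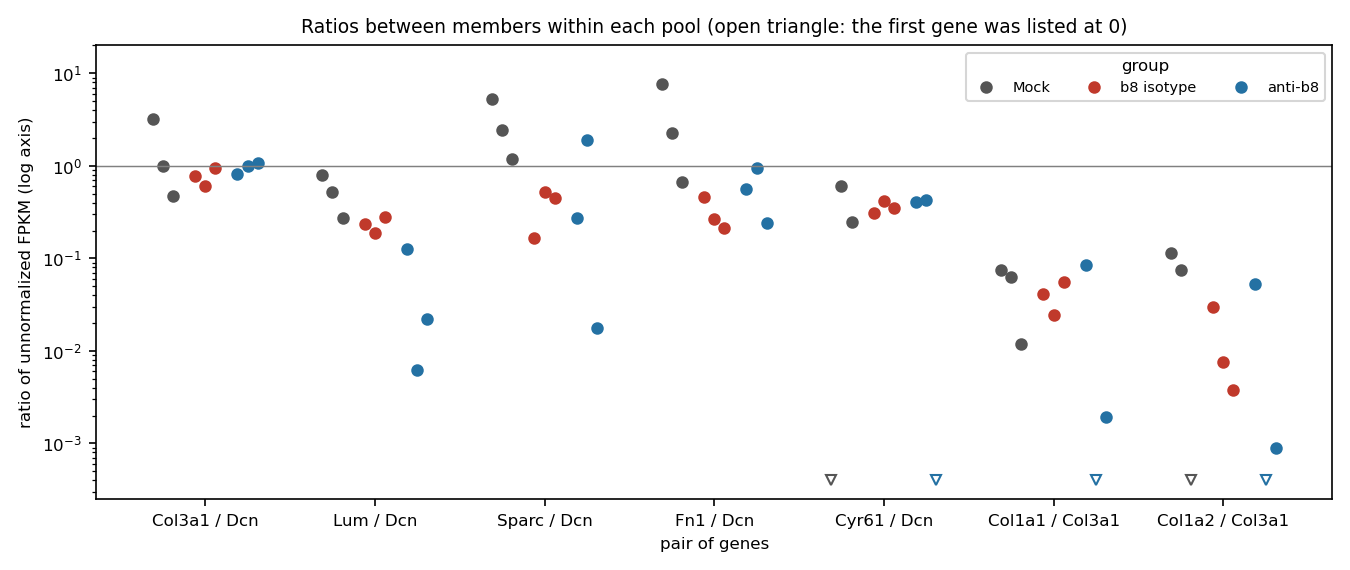
Ratios of unnormalized FPKM between pairs of the genes in each pool, on a log axis, with colours for the 3 groups and open triangles where the first gene was listed at 0. Col3a1 to Dcn lies between 0.610 and 1.07 in the 6 pools of b8-expressing tumours, whereas Lum to Dcn spans 0.00624 to 0.280 there.

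Fn1 and Sparc had the highest Mock means of the tested genes, 7.16 and 7.32 FPKM. Fn1 encodes fibronectin (chromosome 1, 71585520 to 71653200, minus strand), which macrophages also make. It measured 10.2, 7.59 and 3.72 FPKM in Mock, 10.2, 20.6 and 13.3 in b8 isotype and 5.05, 20.05 and 8.21 in anti-b8 (normalized). The lowest b8 isotype pool lay just above the highest Mock pool, at 10.23 against 10.18 FPKM, and the anti-b8 pools overlapped both other groups. The means were 7.16 ± 3.25, 14.7 ± 5.33 and 11.1 ± 7.90 FPKM (SD, n = 3 pools each).

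Sparc encodes SPARC, also called osteonectin, a collagen-binding protein that is also stored in platelets (chromosome 11, 55394500 to 55423183, minus strand). It measured 6.88, 8.12 and 6.97 FPKM in Mock, 3.45, 40.5 and 28.3 in b8 isotype and 2.21, 40.8 and 1.98 in anti-b8. In Mock the 3 pools were close together, while b8 isotype pool 1 and anti-b8 pools 1 and 3 lay below all of Mock and the other 3 pools above it. The groups overlapped in every comparison. In anti-b8 pool 3 the unnormalized value was 0.559 FPKM. The platelet gene Pf4 had its highest value, 39.1 FPKM, in anti-b8 pool 2, where Sparc was at 41.9 FPKM (unnormalized), but was at 1.36 and 0 FPKM in b8 isotype pools 2 and 3. The platelet list of 8 genes summed to 0.150 to 6.84 FPKM in Mock, 0.203 to 2.44 in b8 isotype and 0.223 to 39.6 in anti-b8. The sum of 39.6 FPKM, in anti-b8 pool 2, was nearly all Pf4. Ppbp and Tubb1 of that list were at 0 in every library. Krt18, a keratin gene of epithelial cells, was also highest in anti-b8 pool 2, at 85.3 FPKM against 5.66 to 40.03 in the other pools. The part of these cells in the level of Sparc was not tested.

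Cyr61, named Ccn1 in newer annotation, encodes a secreted CCN family protein and is a standard target gene of the YAP and TEAD factors (chromosome 3, 145646976 to 145649981, minus strand). It measured 0, 1.68 and 1.15 FPKM in Mock, 6.94, 32.5 and 22.0 in b8 isotype and 3.55, 9.38 and 0.0936 in anti-b8. The b8 isotype pools were above all Mock pools, and anti-b8 overlapped both groups. The value of 0.0936 in anti-b8 pool 3 is the lowest that the normalized table gives for that pool, and the unnormalized value was 0. In fragments, Cyr61 rested on about 0, 43 and 26 in Mock, 158, 594 and 545 in b8 isotype and 77, 192 and 0 in anti-b8. Where it was detected in b8-expressing tumours, it held a steady ratio to Dcn, at 0.312, 0.412 and 0.347 in b8 isotype and 0.412 and 0.432 in anti-b8 pools 1 and 2. In anti-b8 pool 3 Cyr61 was listed at 0 while Dcn was at 31.5 FPKM (unnormalized).

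The comparison of b8 isotype with Mock asks what differs in Tregs when the tumour carries b8. Dcn, Cyr61, Col3a1 and Lum had the largest differences and Sparc and Fn1 the smallest, and none of the 6 tested genes passed at an adjusted p under 0.05. On the log2(FPKM + 1) scale, which understates changes of low genes, Dcn differed by 3.71 ± 0.59 (SE, limma unadjusted p = 6.48e-05, adjusted p = 0.134). Col3a1 differed by 3.23 ± 0.56 (limma adjusted p = 0.161) and Lum by 2.48 ± 0.50 (limma adjusted p = 0.260). Cyr61 differed by 3.35 ± 0.82 (limma adjusted p = 0.381). Fn1 differed by 0.98 ± 0.52 and Sparc by 1.08 ± 1.03 (limma adjusted p = 0.978 and 0.9995), the latter within its spread between pools.

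The median over the 6 genes was 2.86, beside 0.0087 over all 12555 genes. At an unadjusted p under 0.05, 4 of the 6 were higher, where 2.99% of all genes were. The pools did not overlap in 5 of the 6, with b8 isotype higher, where 8.98% of all genes had this. At the adjusted threshold 0 of 6 passed, where 0.00796% of all genes did, which is 1 gene.

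The libraries of the anti-b8 group enter this comparison through the shared estimate of the spread, and its adjusted p-values moved with them. Without anti-b8 pools 2 and 3, Dcn, Col3a1 and Cyr61 passed at the same log2 differences with limma adjusted p-values of 0.0480, 0.0202 and 0.0463, and Lum was at 0.0545. In that fit 30 genes passed in all. In the unnormalized table without these pools, Dcn (3.63, limma adjusted p = 0.0468) and Col3a1 (3.15, adjusted p = 0.0178) passed among 18 genes, and Cyr61 and Lum did not. Over all 22 alternatives the adjusted p ranged from 0.00834 to 0.770 for Dcn, 0.00748 to 0.770 for Col3a1, 0.0161 to 1 for Cyr61 and 0.0175 to 0.974 for Lum. The log2 difference of each of the 6 genes stayed above 0 in all of them, between 3.25 and 4.24 for Dcn and between 2.86 and 3.76 for Col3a1.

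**Figure D3:**
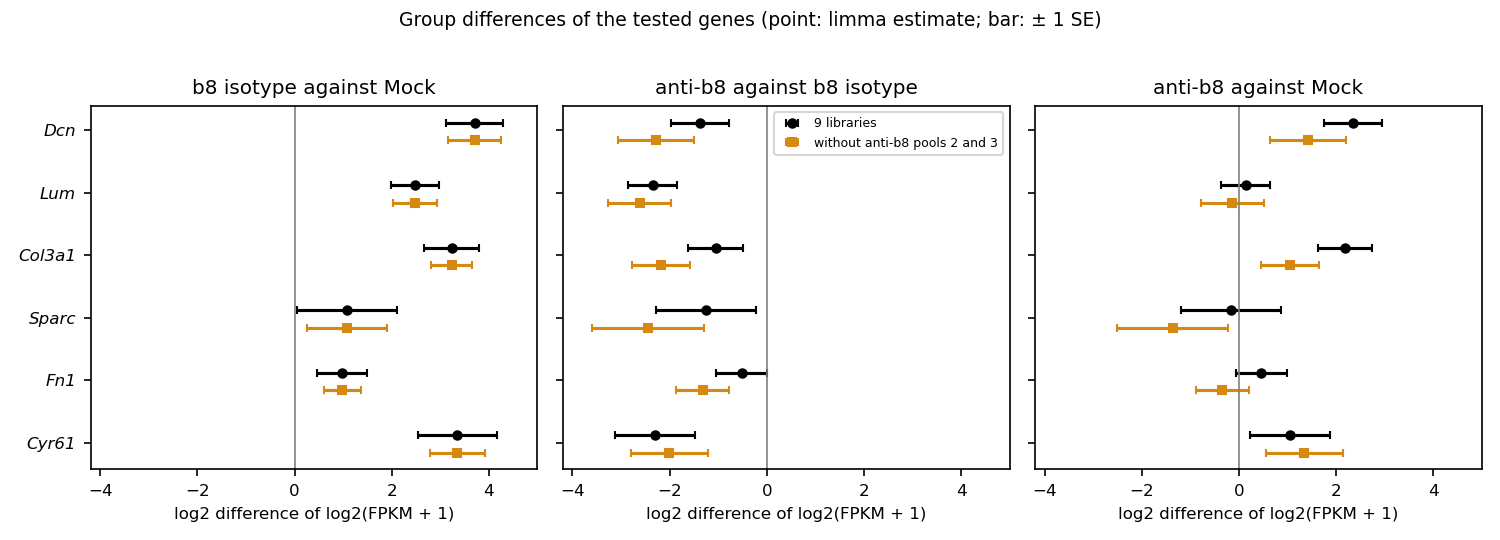
Differences between groups of the 6 tested genes on the log2(FPKM + 1) scale, with points for limma estimates and bars for 1 SE, in the fit of 9 libraries (circles) and without anti-b8 pools 2 and 3 (squares). Lum lies at -2.35 for anti-b8 against b8 isotype and near 0 for anti-b8 against Mock, whereas Dcn and Col3a1 stay above 0 against Mock.

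The comparison of anti-b8 with b8 isotype asks what the antibody changes in Tregs of b8-expressing tumours. Lum and Cyr61 had the largest differences, Lum with 3 of 3 anti-b8 pools below all b8 isotype pools, and again none of the 6 genes passed the adjusted threshold. Lum differed by -2.35 ± 0.50 (SE, limma unadjusted p = 0.000695, adjusted p = 0.311) and Cyr61 by -2.30 ± 0.82 (unadjusted p = 0.0174, adjusted p = 0.430). Dcn differed by -1.37 ± 0.59 (limma unadjusted p = 0.0420, adjusted p = 0.479) and Col3a1 by -1.05 ± 0.56 (adjusted p = 0.535). Sparc differed by -1.25 ± 1.03 (limma adjusted p = 0.671) and Fn1 by -0.52 ± 0.52 (adjusted p = 0.735).

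The median of the 6 was -1.31, beside -0.036 over all genes. Lum, Cyr61 and Dcn made 3 of 6 lower at an unadjusted p under 0.05, where 6.2% of all genes were. The pools did not overlap in 1 of 6, Lum, where 7.63% of all genes had anti-b8 lower in this way, a share of the 6 that is near the background. At the adjusted threshold 0 of 6 passed, where 0.0637% of all genes did.

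This comparison depended on single pools. Without b8 isotype pool 1, in which each of the 6 genes was lowest in that group, 5 of the 6 were lower at an unadjusted p under 0.05 (limma). Of all 12555 genes 509 were lower there. Without b8 isotype pool 2 or pool 3 only Lum was, where 518 and 489 of all genes were. Leaving out anti-b8 pools 2 and 3 leaves 1 anti-b8 pool, so only differences are given for that fit. Dcn was then at -2.28, Col3a1 at -2.18, Cyr61 at -2.01, Lum at -2.62, Sparc at -2.45 and Fn1 at -1.32. Without anti-b8 pool 1, Dcn was at -0.91 and Col3a1 at -0.49. Lum stayed between -3.02 and -2.04 over all 22 alternatives, with limma adjusted p from 0.0815 to 0.791.

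The comparison of anti-b8 with Mock sets treated b8-expressing tumours beside mock-transfected ones, and shares its groups with both comparisons above. Dcn and Col3a1 were higher in 3 of 3 anti-b8 pools than in any Mock pool, while Lum, Sparc and Fn1 lay within 1 SE of 0. Dcn differed by 2.34 ± 0.59 (SE, limma unadjusted p = 0.00236, adjusted p = 0.161) and Col3a1 by 2.18 ± 0.56 (unadjusted p = 0.00264, adjusted p = 0.168). Lum differed by 0.13 ± 0.50 (limma adjusted p = 0.935), Cyr61 by 1.06 ± 0.82 (0.596), Fn1 by 0.46 ± 0.52 (0.719) and Sparc by -0.17 ± 1.03 (0.961).

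The median of the 6 was 0.76, beside -0.025 over all genes. At an unadjusted p under 0.05, 2 of 6 were higher, where 6.09% of all genes were, and the same 2, Dcn and Col3a1, had pools that did not overlap, where 7.89% of all genes did. At the adjusted threshold 0 of 6 passed, where 0.183% of all genes did. Without anti-b8 pools 2 and 3 the differences were 1.42 for Dcn and 1.05 for Col3a1 (limma adjusted p = 0.640 for both) and 0 of 6 had an unadjusted p under 0.05. Without anti-b8 pool 1, Col3a1 rose by 2.74 (limma adjusted p = 0.0357, with a range of 0.0357 to 0.957 over the alternatives) in a fit that called 323 genes.

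Profiles over the 9 pools were set beside each other by the root mean square difference of log2(FPKM + 1), each gene centred on its own mean. Among the 6 tested genes Dcn and Col3a1 were closest, at 0.60, and Dcn and Sparc farthest, at 1.68. Outside the 8 genes, Lum was most like Tcim (0.42), Sdc2 (0.52), which encodes the heparan sulfate proteoglycan syndecan 2, and Ppfibp1 (0.55). Sparc was most like Tpm2 (0.44), a tropomyosin gene of contractile cells, Htra1 (0.48), a secreted protease gene, and Cd63 (0.52). Cyr61 was most like Serpinh1 (0.70), the collagen chaperone HSP47, Cpq (0.80) and the chemokine gene Cxcl1 (0.93).

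For Dcn the closest were Tpx2 (0.78) and Spc24 (0.94), both genes of dividing cells, and Sox9 (0.99). For Col3a1 they were Tpx2 (0.78), Ltf (0.81), which encodes lactoferrin, and Mxra8 (0.81), a matrix remodelling gene. Fn1 had the closest neighbours, Ier3 (0.33), Xylt2 (0.34) and Ldah (0.35).

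Other genes that build the matrix were read from lists, and none of them passed the adjusted threshold in any comparison, with or without anti-b8 pools 2 and 3 (limma). Of 12 tested genes of collagen processing, all 12 lay above 0 in b8 isotype against Mock, where 50.8% of all genes did. Their median was 0.83, and 2 were higher at an unadjusted p under 0.05 (limma), where 2.99% of all genes were. Among the 12, Bmp1 and Plod2 were under 1 FPKM in all Mock pools (normalized). They passed the filter only through b8-expressing tumours, which favours a place above 0 against Mock. In anti-b8 against b8 isotype 11 of the 12 lay below 0, where 52.9% of all genes did, with a median of -0.96 and 3 lower at an unadjusted p under 0.05, where 6.2% of all genes were. Without anti-b8 pools 2 and 3 that median was -0.54, with 11 of 12 below 0, where 48.4% of all genes were. Against Mock the anti-b8 median was 0.038. Serpinh1 measured 2.23, 4.39 and 5.35 FPKM in Mock, 5.11, 26.7 and 30.3 in b8 isotype and 3.88, 16.3 and 0.0641 in anti-b8 (unnormalized). Its pools overlapped between the groups, and its log2 difference of 1.88 ± 0.81 between b8 isotype and Mock had a limma adjusted p of 0.828. Ppib, a proline isomerase gene that all secreting cells use, was at 448 to 556 FPKM in every pool, and P4ha1 and Colgalt1, enzymes that modify collagen chains, were at 1.02 to 26.0 and 4.88 to 13.6 FPKM.

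Of the other interstitial collagens 3 of 10 were tested, Col16a1, Col6a1 and Col6a2. Their log2 differences between b8 isotype and Mock were 1.12 ± 0.95, 1.98 ± 0.64 and 1.38 ± 0.90 (limma adjusted p = 0.9995, 0.612 and 0.9995). Col16a1 and Col6a2 were highest in anti-b8 pool 2, at 25.2 and 13.4 FPKM, whereas Col6a1, like Col3a1, was highest in b8 isotype pool 3, at 8.94 FPKM (unnormalized). In anti-b8 against b8 isotype the median of the 3 was 0.36, and -1.72 without anti-b8 pools 2 and 3. Col5a1, which joins type I fibrils, was highest in b8 isotype pools 2 and 3, at 4.12 and 2.91 FPKM, and at 0.640 FPKM or less elsewhere. Of 7 tested basement membrane genes 6 lay above 0 in b8 isotype against Mock and all 7 below 0 in anti-b8 against b8 isotype, with medians of 0.76 and -0.97, where 50.8% and 52.9% of all genes lay so. The latter median was -1.13 without anti-b8 pools 2 and 3, with 7 of 7 below 0. The laminin gene Lamc1 was the exception, at -0.13 ± 0.43 in b8 isotype against Mock (limma adjusted p = 0.9995). Col4a1, Col4a2, Lamb1 and Nid1 were under 1 FPKM in all Mock pools (normalized). They passed the filter only through b8-expressing tumours, which favours a place above 0 against Mock.

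Of 10 tested proteoglycan and matricellular genes, all 10 lay above 0 in b8 isotype against Mock, with a median of 0.77, where 50.8% of all genes did. Among them Bgn, Aspn, Mfap4 and Vcan were under 1 FPKM in all Mock pools (normalized). They passed the filter only through b8-expressing tumours, which favours a place above 0 against Mock. In anti-b8 against b8 isotype 7 of the 10 lay below 0, where 52.9% of all genes did, with a median of -0.40, and without anti-b8 pools 2 and 3 this was 9 of 10 with a median of -0.91. Ecm1 (103 to 221 FPKM) and Spp1 (19.1 to 102 FPKM), which encodes osteopontin, had the highest levels of the list, and activated T cells or macrophages are known to make both. Of 5 tested proteases and inhibitors 4 lay above 0 in b8 isotype against Mock, where 50.8% of all genes did. Adamts1 of this list was also under 1 FPKM in all Mock pools (normalized) and passed the filter only through b8-expressing tumours. In anti-b8 against b8 isotype 3 of the 5 lay below 0, where 52.9% of all genes did. Their median there was -0.20, and -0.43 without anti-b8 pools 2 and 3. Mmp14, the membrane collagenase, had the smallest p of the 5 in both comparisons. Mmp14 measured 4.81 to 6.38 FPKM in Mock, 13.2 to 18.7 in b8 isotype and 0.669 to 4.39 in anti-b8 (unnormalized), with no overlap between any 2 groups. Of all genes 8.98% had b8 isotype above Mock in this way, and 7.63% had anti-b8 below b8 isotype. Its limma adjusted p was 0.451 for b8 isotype against Mock and 0.208 for anti-b8 against b8 isotype, and without anti-b8 pools 2 and 3 these were 0.0768 and 0.602. Fap, the protease that marks many tumour fibroblasts, and Lox, a collagen cross-linking enzyme, were at 0 in every library.

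Unlike Cyr61, the lists of other YAP and TEAD targets and of TGF-β targets had medians near 0 between b8 isotype and Mock. Of 10 tested YAP and TEAD target genes other than Cyr61, 5 lay above and 5 below 0 in b8 isotype against Mock, with a median of 0.0045. Ctgf, the CCN family gene often read beside Cyr61 as a YAP target, was at 1.77 FPKM or less in every pool. Of 6 tested genes of matrix and TGF-β feedback, 5 lay below 0 in that comparison, where 49.2% of all genes did, with a median of -0.19. In anti-b8 against b8 isotype their median was -0.43 and that of the YAP list -0.22. There 5 of 6 and 9 of 10 lay below 0, where 52.9% of all genes did. At an unadjusted p under 0.05 (limma) 2 of 6 and 1 of 10 were lower, where 6.2% of all genes were. Without anti-b8 pools 2 and 3 the medians were -0.022 and -0.12. In that fit 3 of 6 and 6 of 10 lay below 0, where 48.4% of all genes did. Against Mock the anti-b8 medians of the TGF-β and YAP lists were -0.63 and -0.13, beside -0.025 over all genes. Of the tested genes 3 of 6 and 2 of 10 were lower there at an unadjusted p under 0.05 (limma), where 988 of 12555 genes were. Without anti-b8 pools 2 and 3 these 2 medians were -0.57 and -0.025. Pmepa1, a TGF-β-induced feedback gene, measured 57.0 to 95.3 FPKM in b8 isotype and 18.9 to 31.9 in anti-b8 (unnormalized; log2 difference -1.54 ± 0.30, limma adjusted p = 0.222). Its difference without anti-b8 pools 2 and 3 was -1.14 ± 0.36 (limma adjusted p = 0.846).

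**Figure D4:**
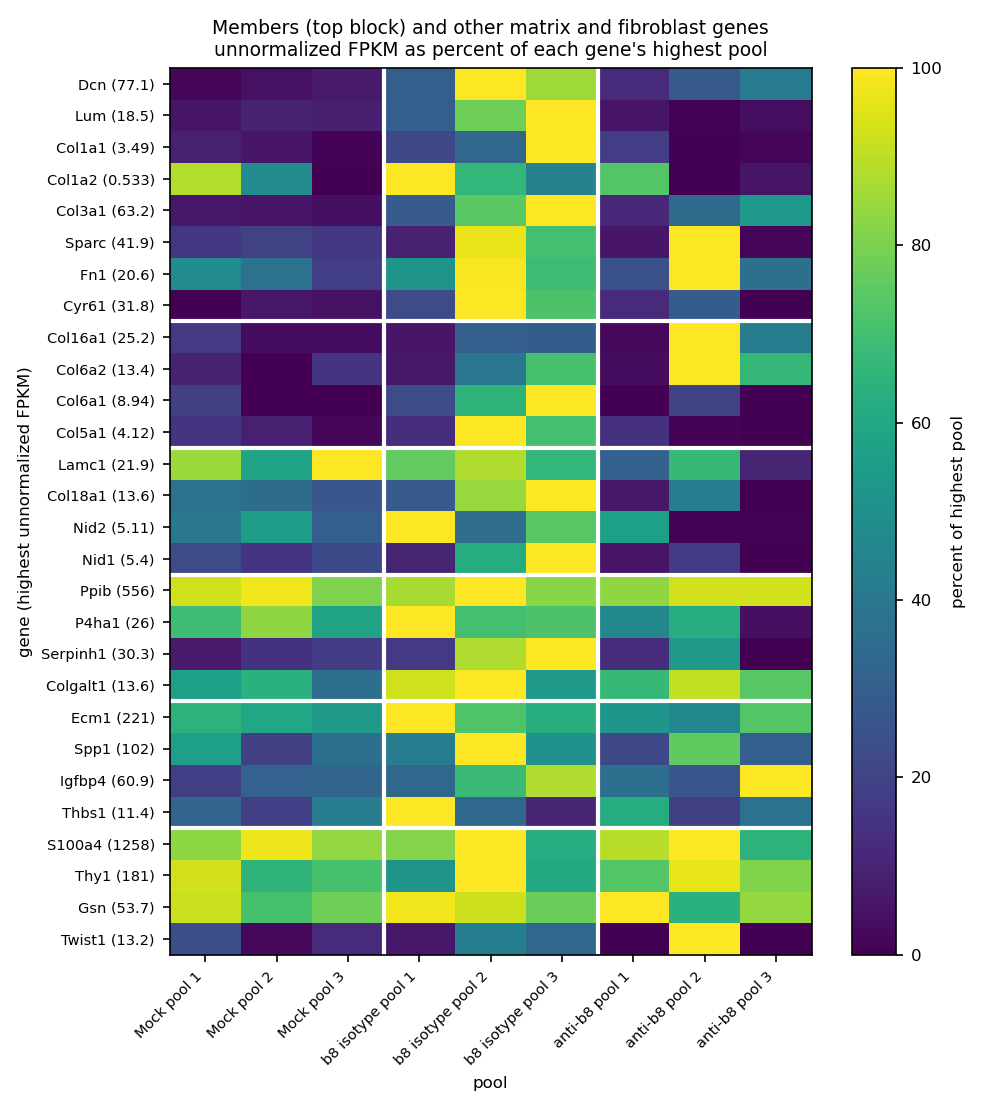
Unnormalized FPKM of the 8 genes (top block) and, below the white lines, of the highest genes of 5 matrix and fibroblast lists, as a percentage of each gene's highest pool, with that highest FPKM in brackets. Dcn, Lum, Col1a1, Col3a1 and Cyr61 have their highest values in b8 isotype pools 2 or 3, whereas Col16a1, Col6a2 and Twist1 have theirs in anti-b8 pool 2. Sparc and Fn1 are nearly level in anti-b8 pool 2 and b8 isotype pool 2, at 41.9 against 40.6 and 20.6 against 20.4 FPKM.

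Among the other fibroblast markers, several were at or near 0. Pdgfra, the receptor gene that marks fibroblasts, measured 0.0997, 0.0985 and 1.66 FPKM in b8 isotype and was listed at 0 in the other 6 pools. Its values in b8 isotype pools 1 and 2 were near 0, and it was not tested. The share of all genes with such a pattern was not computed. Pdgfrb, found on pericytes and fibroblasts, reached 0.0419 FPKM at most, and Tcf21 and C1s1 were at 0 in every library. Twist1, a transcription factor gene of mesenchymal cells, measured 3.18, 0.306 and 1.58 FPKM in Mock, 0.858, 5.70 and 4.47 in b8 isotype and 0, 13.2 and 0 in anti-b8, and the 3 groups overlapped. Of the 19 fibroblast markers outside the 8 genes, 9 were tested. In b8 isotype against Mock 6 of these lay above 0, where 50.8% of all genes did, with a median of 0.11. Dpt had the largest difference, 1.46 ± 0.73 (limma adjusted p = 0.946). It measured 0.792, 0 and 1.21 FPKM in Mock, 2.25, 5.15 and 3.15 in b8 isotype and 0.187, 9.11 and 5.36 in anti-b8 (normalized). Its b8 isotype pools lay above all Mock pools, as in 8.98% of all genes. By limma 0 of the 9 were higher in b8 isotype than in Mock at an unadjusted p under 0.05. In anti-b8 1 of the 9, Cd34, was higher at that threshold than in b8 isotype (log2 difference 0.91 ± 0.34, limma adjusted p = 0.430) and than in Mock (1.01 ± 0.34, adjusted p = 0.254), where 3.97% and 6.09% of all genes were. Cd34 was under 1 FPKM in all Mock and all b8 isotype pools (normalized). It passed the filter only through anti-b8, which favours a higher place there. Its unnormalized values in anti-b8 were 1.71, 0.0830 and 0.258 FPKM, and without pools 2 and 3 its unadjusted p against b8 isotype was 0.0582. The summed level of these 19 markers was 1233 to 1385 FPKM in Mock, 945 to 1510 in b8 isotype and 1013 to 1491 in anti-b8, most of it from S100a4, Thy1 and Gsn, which T cells express too. The other 16 markers summed to 2.81 to 11.6 FPKM in Mock, 14.0 to 22.3 in b8 isotype and 7.05 to 24.6 in anti-b8. In this sum each b8 isotype pool lay above each Mock pool, and the highest pool was anti-b8 pool 2. The part of fibroblasts in the levels of the 8 genes was not tested.

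Markers of other cells were present at levels that differed widely between the lists. Pericyte and smooth muscle genes summed to 0.895 to 2.78 FPKM in Mock, 2.79 to 7.46 in b8 isotype and 1.31 to 5.74 in anti-b8, with Cnn1 at 0 throughout. Endothelial genes summed to 14.1 to 18.4, 14.7 to 16.3 and 13.1 to 16.1 FPKM, so the 3 groups overlapped. Tumour and epithelial genes summed to 44.2 to 64.2 FPKM in Mock, 51.9 to 69.1 in b8 isotype and 41.2 to 153 in anti-b8, with the highest value in anti-b8 pool 2 and with Krt7, Cldn4, Sftpb and Sftpc at 0. Macrophage genes summed to 429 to 792 FPKM in Mock, 350 to 1031 in b8 isotype and 498 to 962 in anti-b8. Lyz2, Apoe and Cd14, the highest genes of that list, measured 136 to 550, 30.1 to 136 and 26.0 to 121 FPKM (unnormalized). Lyz2 was thus above Foxp3, at 74.0 to 135 FPKM, in every pool. Within b8 isotype the macrophage sum was 1031, 465 and 350 FPKM in pools 1, 2 and 3. Of 16 tested macrophage genes 2, C1qa and C1qc, were higher at an unadjusted p under 0.05 in b8 isotype against Mock, where 2.99% of all genes were (log2 differences 1.94 ± 0.54 and 2.12 ± 0.53, limma adjusted p = 0.452 and 0.385). Ltf, the 1 tested gene of the neutrophil list, differed by 2.23 ± 0.34 in that comparison (limma adjusted p = 0.134). The 12 neutrophil genes summed to 11.1 to 23.8 FPKM in Mock, 53.7 to 94.4 in b8 isotype and 35.0 to 81.2 in anti-b8. Most of this was Ltf, with a mean of 44.8 FPKM over the 9 pools. The next were S100a8, S100a9 and Csf3r, with means of 0.658, 0.605 and 0.443 FPKM. Camp and Retnlg were at 0 in every library. The part of these cells was not tested.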

How the data were processed

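RNA from 9 pools of sorted Tregs was made into cDNA with SMART-Seq v4 and into libraries with Nextera XT, per the labels' protocols. The authors deposited FPKM values per gene, once unnormalized and once normalized. Per the submitters' processing notes the build was GRCm38 and the tools were STAR 2.6.1a, Trim Galore 0.5.0, Cufflinks, Picard and RSEM 1.3.1, with no role given for each. The higher ranks of the sorted normalized values differ between libraries by at most 0.0907%, as quantile normalization gives, and anti-b8 pools 2 and 3 hold no 0 there. Symbols were taken from the unnormalized table, in which 1 shifted row was left out.

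Values were analysed as log2(FPKM + 1). The 3 comparisons came from 1 linear model of group means over the 9 normalized libraries in limma 3.58.1 (R 4.3.3, trend and robust). Tests were two-sided, with Benjamini-Hochberg adjustment over the 12555 genes at 1 FPKM or more in 3 or more libraries and a threshold of 0.05. The script was tested on simulated data. The 8 genes and the lists were chosen with earlier results of these data known. All 8 genes are named, with the 3 genes most like each tested one and, of each list described, up to 4 genes of highest mean FPKM, and Foxp3, Cd3e and Cd4 as the check of the sort. Pdgfra, Pdgfrb, Cd34, Dpt, C1qa, C1qc, Ctgf, genes at 0 and list genes under 1 FPKM in all Mock pools were named after their values were seen. Alternatives were the unnormalized table, pseudocounts of 0.1 and 0.01, other filters, array weights, other model settings, the pool number as a block, and libraries left out. Coordinates are from GENCODE M21 (GRCm38) and promoters from RefSeq (GRCm38.p6). Read totals are not in the files, so the precision is that of 3 pools per group.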

Additional observations from a re-analysis of the deposited data

How the results depend on the processing

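Over 22 alternatives and 3 comparisons, 396 log2 differences of the 6 tested genes were computed: 369 kept their direction and their side of the adjusted threshold, 14 kept their direction and passed it, and 13 changed sign. All 13 were in anti-b8 against Mock, where the values were near 0, and the cause was not tested. Lum was at -0.61 in the unnormalized table with either filter, -0.016 with array weights, -0.14 without anti-b8 pools 2 and 3, -0.19 without them in the unnormalized table with either filter and between -0.073 and 0.27 with 1 library left out. Fn1 was at -0.34 without both pools in either table and between -0.041 and 0.86 with 1 library left out. Sparc lay between -1.43 and 0.48 with 1 library left out, above 0 without anti-b8 pool 1 or pool 3.

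Of the 6 genes, 1 was lower at an unadjusted p under 0.05 in anti-b8 against b8 isotype with a pseudocount of 0.1 or 0.01 (limma). Of all 12555 genes 808 and 789 were lower there. With 1 library left out 1 to 5 of the 6 were lower, where 489 to 1503 of all genes were. In anti-b8 against Mock 2 to 3 of the 6 passed that threshold with 1 library left out. Of all genes 496 to 1223 were higher there and 671 to 1554 lower. Genes called over the whole table in b8 isotype against Mock numbered 29 with 6 libraries, 111 with array weights, 0 without trend and robust settings, 30 without both pools (18 in the unnormalized table), 0 over every gene with a value with or without both pools and 1 to 2 with 1 library left out. In anti-b8 against b8 isotype they numbered 2 in the unnormalized table with either filter, 3 with either pseudocount, with 6 libraries or without trend and robust settings, 675 over every gene with a value without both pools, and 2 to 142 with 1 library left out. In anti-b8 against Mock they numbered 11 with a pseudocount of 0.01, 15 with no filter, 14 with array weights, 13 without trend and robust settings, 9 over every gene with a value (721 without both pools) and 9 to 323 with 1 library left out. With array weights Dcn, Lum, Col3a1 and Cyr61 passed in b8 isotype against Mock (limma adjusted p = 0.00834, 0.0175, 0.00748 and 0.0161), and with the 6 libraries of that comparison Col3a1 and Cyr61 did (0.0177 and 0.0464). The unnormalized table moved the median of all genes to -0.20 in anti-b8 against b8 isotype and -0.15 against Mock.

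Pools of the same number deviated from their group means with correlations of -0.040 to 0.046, and pools of different numbers with -0.045 to 0.071. The labels do not say whether the numbers pair the groups. With 3 pools per group these correlations cannot exclude a pairing. With the replicate block 2, 2 and 15 genes were called in the 3 comparisons, and Dcn passed in b8 isotype against Mock (limma adjusted p = 0.0134) and in anti-b8 against Mock (0.0450). With 3 pools per group, values of a few fragments, as for Lum in anti-b8, limit what can be told.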
